A study of Homo sapiens with 6 samples.

Results

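The genes described here were 56 genes of homologous recombination and the neighbouring DNA repair and checkpoint pathways, listed by symbol and followed in the ovarian cancer cell line OVCAR8. A gene was tested when its deposited value was 10 or more in 2 or more of the 6 samples. Of the 56 genes, all of which are among the 14930 genes of the deposited matrix, 49 met this limit, and the 7 others were low. MRE11 is written MRE11A in the matrix, and the second name was used for it.

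RNA-Seq had been performed on 3 groups of 2 replicates, each collected after 72 h. Control cells (Ctrl) received DMSO, DZNep cells received 3-deazaneplanocin A, and shEZH2 cells received doxycycline to induce a hairpin against EZH2 from a Tet-On construct. The labels give DZNep as 5 mM and doxycycline as 1 mg/mL, whereas the methods of the study give the same numbers in micromolar and micrograms per millilitre. The sources do not say whether the control cells carried a hairpin construct, and no doxycycline is stated for them, so the construct, doxycycline and loss of EZH2 cannot be told apart in shEZH2 cells. A single hairpin, number 2 of the study, was used. DZNep blocks S-adenosylhomocysteine hydrolase and thereby many methyltransferases, so it is not specific to EZH2, the enzyme that methylates lysine 27 of histone H3. The labels do not say that replicates were separate cultures, so p-values measure the spread between these samples, which may be technical.

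Cells repair double-strand breaks by homologous recombination, which copies an intact sister chromatid, or by end joining, which ligates the ends. In homologous recombination the ends are resected by the MRE11, RAD50 and NBN complex with its partners, BRCA1, PALB2 and BRCA2 prepare the resected strand, and further factors drive its exchange with the sister chromatid. The Fanconi anaemia pathway feeds interstrand crosslinks into this route, and the kinases ATM and ATR signal the damage. Loss of homologous recombination is common in high-grade serous ovarian carcinoma and is the basis for treatment with PARP inhibitors.

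The deposited values are whole numbers that the authors had scaled so that each sample adds up to between 999956 and 1000068. They are not read counts, the depth is unknown, and levels are compared here between samples and never between genes. TMM factors ran from 0.92 to 1.116, and no scaling tried moved the median of all 9671 tested genes by over 0.1 on the log2 scale. The replicates of Ctrl and of DZNep stood apart along GC content, as described for the repair genes further on, whereas the shEZH2 replicates were close, with a standard deviation of the replicate difference of 0.141 (log2) against 0.428 in Ctrl and 0.447 in DZNep cells. Without counts it could not be tested whether the shEZH2 samples differ by more than sampling noise. Epithelial markers were present but differed between the groups. KRT8 was 1021 and 816 in Ctrl, 3540 and 3046 in DZNep cells and 1484 and 1494 with shEZH2, and it rose 3.42-fold with DZNep (adjusted p = 0.00085), as did KRT18 3.17-fold (adjusted p = 0.0013). MSLN was 176 and 150 in Ctrl, 45 and 36 in DZNep cells and 102 and 95 with shEZH2, and with DZNep it fell to 0.24 of Ctrl (adjusted p = 0.00048) and PAX8 to 0.624 (adjusted p = 0.028). KRT7 was 597 and 499 in Ctrl, 585 and 503 in DZNep cells and 355 and 350 with shEZH2. It was not called, at 0.625 of Ctrl with shEZH2 (adjusted p = 0.087). The part of these differences in the values of the repair genes was not tested. WT1 was at most 2, EPCAM lay between 5 and 12 and MUC16 was not listed. The endothelial gene VWF was at most 2, and the endothelial genes PECAM1 and CDH5 and the leukocyte genes PTPRC, CD3E and LYZ were not listed. The fibroblast gene PDGFRB was 12 and 11 in Ctrl, 56 and 42 in DZNep cells and 37 and 34 with shEZH2, while COL1A1 lay between 9 and 16 and COL1A2 and DCN were not listed. In bulk RNA, fewer cells of a kind and less RNA per cell cannot be told apart.

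EZH2, the targeted gene, had deposited values of 36 and 42 in Ctrl, 26 and 26 in DZNep cells and 18 and 18 with shEZH2, so the 3 groups did not overlap. DZNep lowered it by a log2 fold change of -0.63 (standard error 0.18, adjusted p = 0.026 by limma, n = 2 per group), and the value was lower still in the hairpin cells (-1.12, standard error 0.18, adjusted p = 0.016), although the treatments did not differ past the threshold (-0.48, adjusted p = 0.13). The shEZH2 call was lost when either hairpin replicate was left out, which left 1 sample in that group. The log2 fold change was then -1.09 without replicate 1 and -1.14 without replicate 2. Most calls with shEZH2 over all tested genes were lost in these fits as well. For DZNep the adjusted p was 0.083 without Ctrl replicate 2, 0.073 without DZNep replicate 2, and 0.091 and 0.092 without shEZH2 replicate 1 or 2, which enter through the shared estimate of spread.

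With DZNep, 14 of the 49 tested repair genes were called at an adjusted p under 0.05. The 11 that fell were RAD51D, RAD51AP1, ATR, FANCI, UBE2T, ERCC4, DDB2, XRCC1, XRCC5, PRKDC and TP53BP1, and the 3 that rose were XRCC3, MDC1 and RNF8. The share that fell, 22.4%, stood beside 20.4% of all tested genes, and the share that rose, 6.12%, beside 22.4% of all tested genes. The median log2 fold change of the 49 genes was -0.08, against 0.02 over all tested genes. At the thresholds of the study, an absolute log2 fold change above 1 with an unadjusted P under 0.05, 5 repair genes fell and 3 rose, beside 11.8% and 10.5% of all tested genes. With shEZH2, MDC1 alone was called by limma, higher, which is 2.04% of the repair genes beside 3.90% of all tested genes, and 0 repair genes were called lower beside 4.53%. At an unadjusted p under 0.05, 6 were lower and 4 higher with shEZH2 (12.2% and 8.16%), beside 13.4% and 14.9% of all tested genes. MDC1 was also the only repair gene past the thresholds of the study with shEZH2, in which 3.03% of all tested genes were lower and 2.27% higher. The median of the repair genes was -0.17, against -0.01 over all tested genes. Both comparisons use the same Ctrl samples.

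**Figure D1:**
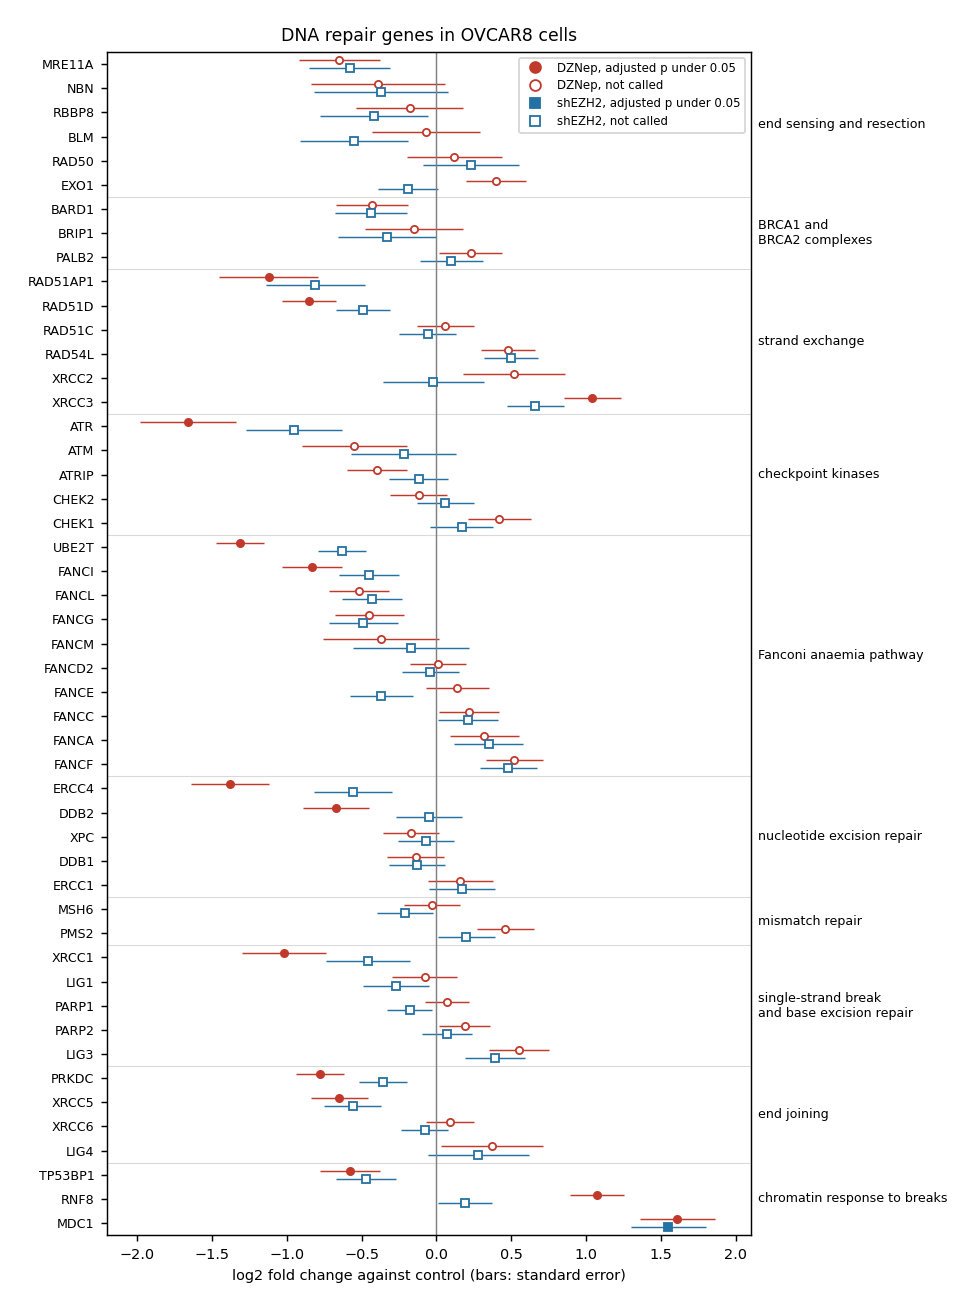
Log2 fold change against Ctrl (x axis) of each of the 49 tested repair genes, grouped by role, with DZNep (red circles) and shEZH2 (blue squares). Bars are standard errors of the limma fit and filled symbols have an adjusted p under 0.05. The filled red symbols run from ATR at -1.66 to MDC1 at 1.61, and MDC1 is the only filled blue symbol.

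These counts depended on which samples entered the fit. The shEZH2 samples take part in the DZNep comparison through the shared estimate of spread. With the Ctrl and DZNep samples alone, 8 repair genes fell with DZNep, or 16.3%. Over all tested genes the share that fell was then 15.6%, and it was 20.4% with all 6 samples. Some calls were lost when 1 Ctrl or DZNep sample was left out, as given for each gene below. Of the 14 called genes, 8 (RAD51D, XRCC3, ATR, UBE2T, ERCC4, PRKDC, MDC1 and RNF8) passed under each of the 18 alternatives computed per gene. The following describes genes that had been called on these same samples and lends the calls no further weight. All 14 had the same sign in both differences between samples of equal replicate number. DZNep and Ctrl did not overlap for 13 of the 14 on the deposited values and for 14 of 14 after scaling. After scaling they did not overlap for 27 of the 49 tested repair genes. The share over all tested genes is not given here, so these counts do not set the repair genes apart.

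MDC1, the adaptor that binds phosphorylated H2AX at breaks and gathers further repair factors, had values of 17 and 14 in Ctrl, 58 and 46 in DZNep cells and 53 and 45 with shEZH2. Every treated sample was above both Ctrl samples, and the treated groups overlapped each other. MDC1 was 3.05-fold higher with DZNep (log2 1.61, standard error 0.25, adjusted p = 0.0018) and 2.94-fold higher with shEZH2 (log2 1.55, standard error 0.25, adjusted p = 0.015). The shEZH2 call was lost without shEZH2 replicate 1 (log2 1.47) and without replicate 2 (1.64). It was also lost when the mean of both shEZH2 samples stood for 1 sample (1.56). These fits leave 1 shEZH2 sample, and most calls with shEZH2 over all tested genes were lost in them as well. MDC1 lies on chromosome 6 of GRCh38 from 30699807 to 30717447 on the minus strand, and the long noncoding gene MDC1-AS1 lies opposite it over 10118 bases. The libraries were stranded, but the strand setting of the quantification is not stated in the sources, so reads of the pair may not be separated.

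RNF8, the ubiquitin ligase that acts after MDC1 at breaks, had values of 12 and 14 in Ctrl, 26 and 34 in DZNep cells and 15 and 16 with shEZH2. RNF8 lies on chromosome 6 from 37353979 to 37394734, plus strand. The DZNep samples lay above the other 4. It rose with DZNep by 1.07 (log2, standard error 0.18, adjusted p = 0.003), whereas with shEZH2 it stood at 0.19 (adjusted p = 0.52). TP53BP1, which holds back resection and favours end joining, had values of 59 and 80 in Ctrl, 39 and 59 in DZNep cells and 48 and 54 with shEZH2. Its fall with DZNep was -0.58 (standard error 0.20, adjusted p = 0.047), the weakest of the calls, and the groups met on the deposited values. It was lost without Ctrl replicate 2 (-0.44, adjusted p = 0.19), without DZNep replicate 1 (-0.41, adjusted p = 0.18) and without either shEZH2 replicate (-0.58, adjusted p = 0.11). TP53BP1 was described after its values were seen, and TUBGCP4 overlaps it on the other strand.

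The bases before the start of these genes are given for the genes that stand apart between comparisons, namely MDC1, called in both comparisons with Ctrl, and UBE2T and RNF8, the 2 genes called between shEZH2 and DZNep. UBE2T and RNF8 were chosen after their values were seen. The sequences are from RefSeq (GRCh38.p14), 5′ to 3′ on the strand of the gene, and capitals mark matches on either strand to CCAAT, a box bound by NF-Y, or to TTTGAA, the core of the cell cycle homology region found in promoters of mitotic genes. For UBE2T and RNF8 the bases outside annotated exons are shown, at chr1:202341985-202342186 on the minus strand and chr6:37353733-37353978 on the plus strand. All 250 bases before the RefSeq start of MDC1 lie in exons of MDC1 or the divergent TUBB, so only the bases around its 3 matches are shown, at chr6:30717486-30717510, chr6:30717396-30717421 and chr6:30717321-30717345 on the minus strand.
MDC1, first CCAAT box: ttggagctgcCCAATcgacgtgcat
MDC1, TTTGAA: acaccacctaTTTGAActctaagggg
MDC1, second CCAAT box: gcggcagaagCCAATcagcaaataa
UBE2T: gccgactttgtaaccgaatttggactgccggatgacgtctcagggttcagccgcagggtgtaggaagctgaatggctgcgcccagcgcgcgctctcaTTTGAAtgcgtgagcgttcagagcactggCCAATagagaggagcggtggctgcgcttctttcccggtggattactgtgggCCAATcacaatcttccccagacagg
RNF8: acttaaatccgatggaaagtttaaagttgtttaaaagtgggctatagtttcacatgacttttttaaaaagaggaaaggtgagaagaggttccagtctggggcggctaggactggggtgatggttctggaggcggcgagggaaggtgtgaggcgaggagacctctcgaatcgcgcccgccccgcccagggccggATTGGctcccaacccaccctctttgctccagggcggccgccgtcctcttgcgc

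MDC1 and UBE2T, which moved in opposite directions with DZNep, thus both hold 2 CCAAT boxes and 1 TTTGAA in this window, and RNF8 holds 1 CCAAT box on the other strand. In the 250 bases before the start, CCAAT was found in 33% of 27305 promoters and in 51.1% of the 45 tested repair genes with a RefSeq promoter, namely 5 of 8 that fell, 3 of 3 that rose and 15 of 34 that were not called with DZNep. TTTGAA was found in 13.6% of all promoters and 13.3% of the repair genes. The E2F-like words TTTGGCGC, TTTCCCGC, TTTCGCGC and TTTGCCGC, searched on both strands, were found in 2.79% of all promoters and 11.1% of the repair genes. The 5 matches were all among the genes not called with DZNep, which are 34 of the 45. The NRF1-like word GCATGCGC was in 2.81% of all promoters and 4.44% of the repair genes. All promoters include those of genes not tested here, so these shares do not compare like with like.

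**Figure D2:**
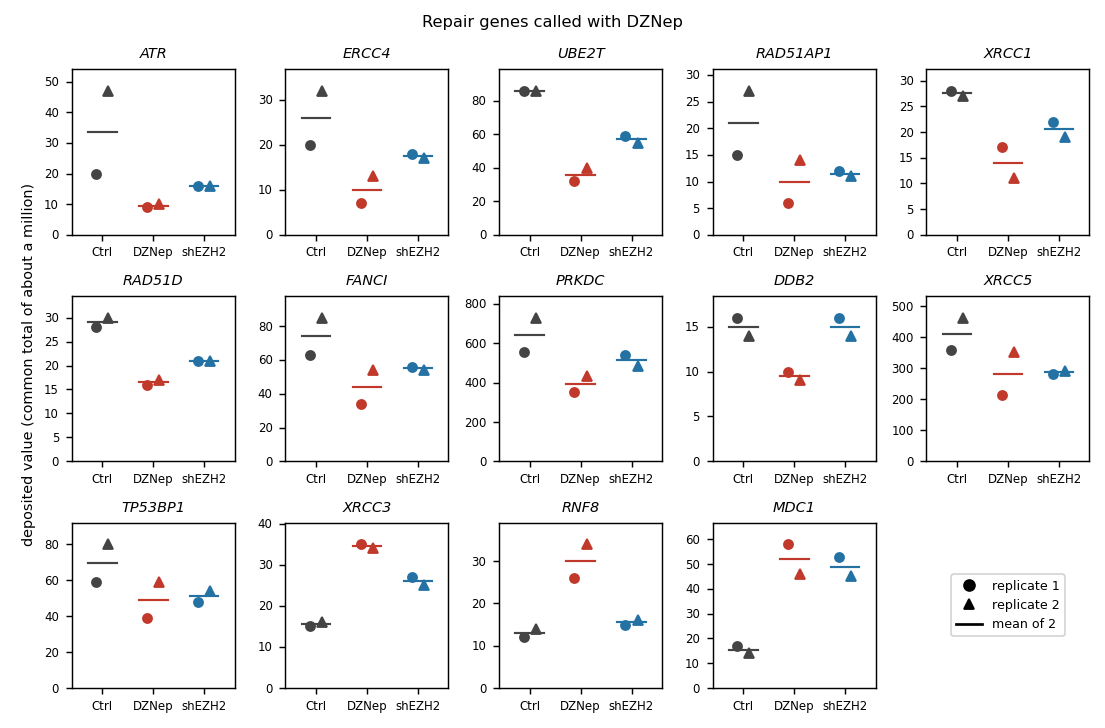
Deposited value (y axis, from 0) of the 14 repair genes called with DZNep in each of the 6 samples, with circles for replicate 1, triangles for replicate 2 and a line at the mean of 2. UBE2T lies at 86 and 86 in Ctrl and at 32 and 40 in DZNep cells, with shEZH2 cells between them, and MDC1 is high in both treated groups.

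Among the genes of strand exchange, 2 of 6 tested fell and 1 rose with DZNep, beside 20.4% and 22.4% of all tested genes. With shEZH2, 0 of 6 were called by limma, beside 4.53% lower and 3.90% higher. At an unadjusted p under 0.05, 2 were lower and 2 higher with shEZH2, beside 13.4% and 14.9% of all tested genes. RAD51D, a strand exchange factor on chromosome 17 (35092221 to 35121522, minus strand), was 28 and 30 in Ctrl, 16 and 17 in DZNep cells and 21 and 21 with shEZH2, and the 3 groups were ordered without overlap. It fell with DZNep by 0.85 (log2, standard error 0.18, adjusted p = 0.0073), and with shEZH2 the log2 fold change was -0.49 (adjusted p = 0.12). An annotated readthrough gene on the same strand covers RAD51D, so its reads may be shared. RAD51AP1, which stimulates strand invasion, was 15 and 27 in Ctrl, 6 and 14 in DZNep cells and 12 and 11 with shEZH2. Its replicates differed by 0.66 in Ctrl and 0.87 in DZNep cells on the log2 scale, and the fall with DZNep (-1.12, standard error 0.33, adjusted p = 0.027) was lost without Ctrl replicate 2 (-0.79, adjusted p = 0.11) or DZNep replicate 1 (-0.68, adjusted p = 0.12). XRCC3, another strand exchange factor on chromosome 14 (103697609 to 103715504, minus strand), moved the other way, with 15 and 16 in Ctrl, 35 and 34 in DZNep cells and 27 and 25 with shEZH2. It rose 2.05-fold with DZNep (log2 1.04, standard error 0.19, adjusted p = 0.0037), and with shEZH2, where the samples also lay above Ctrl, the log2 fold change of 0.66 had an adjusted p of 0.064. KLC1 overlaps XRCC3 on the other strand and was not called (-0.31 with DZNep, adjusted p = 0.14).

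The other tested genes of this step were not called. RAD54L, a motor protein of this step, was 13 and 13 in Ctrl, 18 and 21 in DZNep cells and 20 and 19 with shEZH2, with log2 fold changes of 0.48 (adjusted p = 0.066) and 0.50 (adjusted p = 0.12). XRCC2, which forms a complex with RAD51D, had 7 and 15 in Ctrl, 11 and 23 in DZNep cells and 11 and 10 with shEZH2, so replicates differed more than the groups. RAD51C was between 28 and 42 in all samples. RAD51B and RAD52 were low, at 5 to 10 and 4 to 9.

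By limma, 0 of the 6 tested genes of end sensing and resection were called in either comparison. With DZNep, 20.4% of all tested genes were lower and 22.4% higher. In this group 1 gene (MRE11A, lower with DZNep) had an unadjusted p under 0.05, beside 24.6% of all tested genes lower with DZNep. After the correction for length and GC content described further on, RAD50 (0.47, adjusted p = 0.047) and EXO1 (0.53, adjusted p = 0.0038) of this group were called higher with DZNep. MRE11A, the nuclease, was 28 and 50 in Ctrl, 19 and 32 in DZNep cells and 25 and 26 with shEZH2, with log2 fold changes of -0.65 (standard error 0.27, adjusted p = 0.083) and -0.58 (adjusted p = 0.20). RAD50, its partner, was 10 and 15 in Ctrl, 9 and 22 in DZNep cells and 15 and 15 with shEZH2, and BLM, a helicase of resection, was 7 and 15, 7 and 15, and 6 and 8. NBN, the third subunit, showed the widest replicate difference among the repair genes, with 31 and 83 in Ctrl and 25 and 65 in DZNep against 40 and 41 in shEZH2 cells. Its log2 fold changes were -0.39 with DZNep and -0.37 with shEZH2, and the standard error of 0.45 was the largest of the 49 genes.

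BRCA1 and BRCA2 were both low. BRCA1, which promotes resection, was 5 and 9 in Ctrl, 9 and 11 in DZNep cells and 8 and 8 with shEZH2. BRCA2, which acts after resection, was 5 and 13, 6 and 8, and 7 and 8. The groups of both genes overlapped on the deposited values, and no fold change was fitted. After TMM scaling both DZNep samples lay above both Ctrl samples for BRCA1, by 0.72 and 0.15 (log2) between samples of equal number, whereas the groups of BRCA2 still overlapped. Their partners BARD1, BRIP1 and PALB2 were tested and not called, with log2 fold changes between -0.43 and 0.23 with DZNep and between -0.44 and 0.10 with shEZH2.

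Of the 5 checkpoint kinase genes, counting the ATR partner ATRIP, 1 fell with DZNep, beside 20.4% of all tested genes. ATR, the kinase that responds to single-stranded DNA at stalled forks (chromosome 3, 142449007 to 142578733, minus strand), was 20 and 47 in Ctrl, 9 and 10 in DZNep cells and 16 and 16 with shEZH2. All 4 treated samples lay below both Ctrl samples, although the Ctrl replicates themselves stood far apart. ATR had the lowest fold change of the 49 genes with DZNep (log2 -1.66, standard error 0.32, adjusted p = 0.0046) and also with shEZH2 (-0.95, standard error 0.32, adjusted p = 0.10), where it was not called. The DZNep value ran from -2.18 to -1.15 when single samples were left out and passed each time. ATM, the kinase for double-strand breaks, was 55 and 130 in Ctrl, 44 and 83 in DZNep cells and 74 and 76 with shEZH2, and its log2 fold changes of -0.55 and -0.22 had adjusted p-values of 0.24 and 0.72. CHEK1 and CHEK2, the kinases below ATR and ATM, and ATRIP were not called, with log2 fold changes between -0.40 and 0.42 with DZNep.

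In the Fanconi anaemia pathway 2 of 10 tested genes fell and 0 rose with DZNep, beside 20.4% and 22.4% of all tested genes. At an unadjusted p under 0.05, 3 were lower and 1 higher, beside 24.6% and 26.5% of all tested genes. UBE2T, the ubiquitin-conjugating enzyme that marks FANCD2 and FANCI (chromosome 1, 202331544 to 202341984, minus strand), was 86 and 86 in Ctrl, 32 and 40 in DZNep cells and 59 and 55 with shEZH2. The 3 groups were apart, with shEZH2 cells between the others. It fell with DZNep to 0.403 of Ctrl (log2 -1.31, standard error 0.16, adjusted p = 0.00076), and the log2 fold change with shEZH2 was -0.63 (standard error 0.16, adjusted p = 0.052). FANCI, which with FANCD2 forms the clamp on damaged DNA, was 63 and 85 in Ctrl, 34 and 54 in DZNep cells and 56 and 54 with shEZH2. Its fall with DZNep (-0.83, standard error 0.20, adjusted p = 0.012) was lost without Ctrl replicate 2 (-0.69, adjusted p = 0.052) or DZNep replicate 1 (-0.63, adjusted p = 0.05, rounded). POLG overlaps FANCI on the other strand over 12064 bases, and the strand setting is not stated, so reads of the pair may not be separated. POLG was also lower with DZNep (-0.78, adjusted p = 0.026), as were 20.4% of all tested genes. Whether the pair shares reads was not tested.

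Of the core complex genes among the 56, those tested were not called in either comparison with Ctrl. After the length and GC correction described further on, FANCF was called higher and FANCG lower in both. FANCE was then called lower with shEZH2 (-0.59, adjusted p = 0.0041 by limma). FANCA was 29 and 24 in Ctrl, 38 and 32 in DZNep cells and 36 and 34 with shEZH2 (0.32 and 0.35, neither called), and FANCF was 11 and 12, 15 and 21, and 18 and 16. FANCF, with log2 fold changes of 0.52 (adjusted p = 0.058) and 0.48 (adjusted p = 0.15), had all treated samples above Ctrl. FANCD2, the partner of FANCI, was 28 and 35 in Ctrl and 28 and 39 in DZNep cells, a log2 fold change of 0.01. The other core and accessory genes FANCC, FANCE, FANCG, FANCL and FANCM had log2 fold changes between -0.52 and 0.22 with DZNep, none of them called, and FANCB was low at 3 to 7.

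Nucleotide excision repair removes bulky lesions, and 2 of its 5 tested genes fell with DZNep, beside 20.4% of all tested genes. ERCC4 (XPF), the nuclease that with ERCC1 cuts at lesions and crosslinks (chromosome 16, 13920138 to 13952348, plus strand), was 20 and 32 in Ctrl, 7 and 13 in DZNep cells and 18 and 17 with shEZH2. It fell with DZNep (log2 -1.38, standard error 0.26, adjusted p = 0.0045), whereas its log2 fold change with shEZH2 was -0.56 (adjusted p = 0.21). Its partner ERCC1 was 100 and 84 in Ctrl and 118 and 98 in DZNep cells and was not called, so the subunits did not move together at the RNA level. DDB2, a damage sensor and p53 target, described after its values were seen, was 16 and 14 in Ctrl, 10 and 9 in DZNep cells and 16 and 14 with shEZH2, so only DZNep cells stood apart. Its fall with DZNep (-0.67, standard error 0.22, adjusted p = 0.041) was lost without Ctrl replicate 1 (-0.51, adjusted p = 0.14), without DZNep replicate 2 (-0.49, adjusted p = 0.13) and without either shEZH2 replicate (-0.67, adjusted p = 0.10). XPC and DDB1 were not called, and XPA was low at 4 to 11. Of the mismatch repair genes tested, PMS2 was 9 and 12 in Ctrl, 14 and 17 in DZNep cells and 12 and 13 with shEZH2 (0.46 with DZNep, adjusted p = 0.091), and MSH6 had a log2 fold change of -0.03.

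In single-strand break and base excision repair 1 of 5 tested genes was called, lower with DZNep, beside 20.4% of all tested genes. XRCC1, the scaffold for this repair, was 28 and 27 in Ctrl, 17 and 11 in DZNep cells and 22 and 19 with shEZH2, again with the 3 groups apart. It fell with DZNep (-1.02, standard error 0.28, adjusted p = 0.02), but without DZNep replicate 2 the value was -0.61 with an adjusted p of 0.054. PINLYP and a readthrough gene overlap XRCC1. LIG3, the ligase that XRCC1 binds, had treated samples above Ctrl, with 29 and 25 in Ctrl, 42 and 42 in DZNep cells and 39 and 35 with shEZH2 (0.55 with DZNep, adjusted p = 0.056). PARP1, the sensor of strand breaks and target of PARP inhibitors, was 279 and 305 in Ctrl, 306 and 338 in DZNep cells and 270 and 264 with shEZH2. Its log2 fold changes were 0.07 (standard error 0.15, adjusted p = 0.73) and -0.18 (adjusted p = 0.47). PARP2 and LIG1 were not called either. The length and GC correction described further on changed this with shEZH2. PARP1 (-0.24, adjusted p = 0.046), LIG1 (-0.48, adjusted p = 0.04) and XRCC1 (-0.70, adjusted p = 0.013) were then called lower by limma.

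Of the end joining genes, 2 of 4 tested fell with DZNep, beside 20.4% of all tested genes. Both encode parts of the DNA-dependent protein kinase. PRKDC, its catalytic subunit, was 555 and 731 in Ctrl, 352 and 433 in DZNep cells and 543 and 486 with shEZH2, and fell with DZNep by 0.78 (log2, standard error 0.16, adjusted p = 0.0064). XRCC5 (Ku80) was 359 and 463 in Ctrl, 213 and 351 in DZNep cells and 281 and 292 with shEZH2. The XRCC5 call with DZNep (-0.65, standard error 0.19, adjusted p = 0.03) was lost without Ctrl replicate 2 (-0.54, adjusted p = 0.11), without DZNep replicate 1 (-0.41, adjusted p = 0.13) and without either shEZH2 replicate (-0.65, adjusted p = 0.071). The Ku partner XRCC6 (Ku70) stayed between 562 and 679 in all samples, and DZNep left it at a log2 fold change of 0.09 (adjusted p = 0.66). LIG4 was 8 and 15 in Ctrl, 10 and 23 in DZNep cells and 15 and 13 with shEZH2 and was not called, and its partner XRCC4 was low at 2 to 10.

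In the direct comparison of shEZH2 with DZNep, UBE2T was higher in shEZH2 cells (log2 difference 0.68, standard error 0.16, adjusted p = 0.043) and RNF8 was lower (-0.88, standard error 0.18, adjusted p = 0.028). That is 2.04% of the repair genes in each direction, beside 4.88% of all tested genes higher and 4.42% lower. For the other 47 repair genes a difference between the treatments was not shown, also where 1 treatment passed its test against Ctrl and the other did not. ERCC4, for which that was so, had a difference of 0.83 (standard error 0.26, adjusted p = 0.086). The UBE2T call was lost without DZNep replicate 1 (0.65) or 2 (0.71) and without shEZH2 replicate 1 (0.66) or 2 (0.70). The RNF8 call was lost without DZNep replicate 2 (-0.81) and without shEZH2 replicate 1 (-0.81) or 2 (-0.95). Without either shEZH2 replicate, most calls between the treatments over all tested genes were lost as well.

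Across the repair genes, the difference between replicates in Ctrl and in DZNep cells followed the GC content of the transcript. Genes with AT-rich transcripts such as NBN (36.9% GC) were higher in replicate 2 of both groups, by 1.24 in Ctrl and 1.10 in DZNep cells on the log2 scale. GC-rich transcripts such as FANCG (57.7% GC) were higher in replicate 1, with -0.60 and -0.28 for replicate 2 minus replicate 1. Over the 49 genes the Spearman correlation of this difference with GC content was -0.81 in Ctrl, -0.87 in DZNep and -0.02 in shEZH2 cells, and over all tested genes with a transcript it was -0.77, -0.82 and 0.05. These are descriptions across genes that share the same libraries. The difference was above 0.5 in 11 repair genes in Ctrl, 12 in DZNep and 0 in shEZH2 cells. The repair genes are long, with a median transcript of 4245 bases against 3293 for all tested genes.

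**Figure D3:**
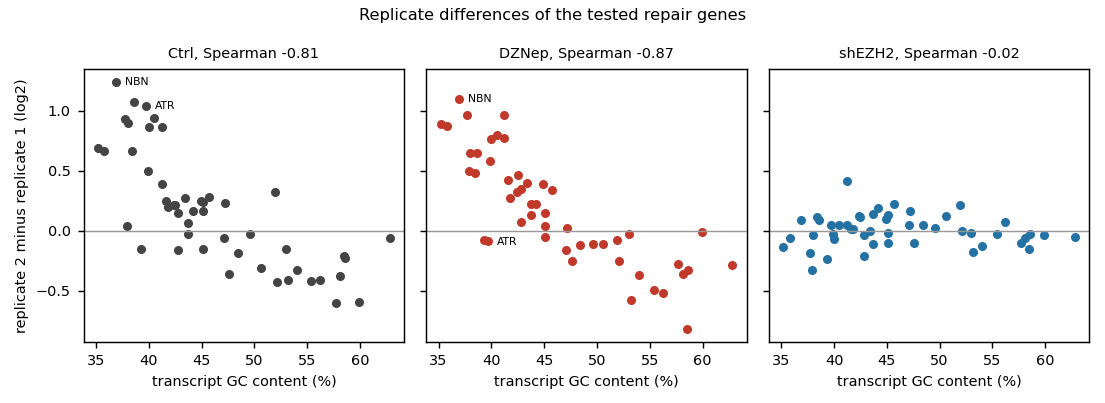
Replicate 2 minus replicate 1 (y axis, log2 scale) against the GC content of the transcript (x axis, %) for the 49 tested repair genes in each group. The points fall with GC content in Ctrl and DZNep cells and lie flat near 0 in shEZH2 cells, with ATR above 1 in Ctrl and near 0 in DZNep cells.

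After a lowess correction for transcript length and GC content within each sample, 15 repair genes fell and 11 rose with DZNep, beside 30.1% of all tested genes in each direction, and 10 fell and 5 rose with shEZH2, beside 18.2% and 15.0%. All 14 genes called with DZNep were called in the same direction after this correction. The 8 further genes that rose with DZNep were RAD50, EXO1, XRCC2, CHEK1, FANCF, PMS2, LIG3 and LIG4, at log2 fold changes from 0.43 for PMS2 to 0.81 for XRCC2. The 4 further genes that fell with DZNep were ATRIP (-0.58, adjusted p = 0.0033), FANCG (-0.76, adjusted p = 0.00071), XPC (-0.45, adjusted p = 0.044) and DDB1 (-0.39, adjusted p = 0.014). The 10 that fell with shEZH2 were RAD51AP1, FANCE, FANCG (-0.71, adjusted p = 0.0032), FANCI, UBE2T, PARP1, XRCC1, LIG1, XRCC5 and TP53BP1. The 5 that rose with shEZH2 were XRCC3, CHEK1, FANCF, LIG4 and MDC1. These genes were named after their values were seen. The share of repair genes that rose with DZNep was thus 22.4% with the correction and 6.12% without it, so its distance from the share of all genes depended on this choice.

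The other genes of the same pathways were taken from lists that had been written down with earlier results of these data known. Of 26 other homologous recombination and crosslink repair genes, 1 fell and 5 rose with DZNep. These are 3.85% and 19.2%, beside 20.4% and 22.4% of all tested genes. BABAM2 (written BRE in the matrix), a subunit of a BRCA1 complex, was 18 and 15 in Ctrl, 60 and 56 in DZNep cells and 32 and 31 with shEZH2 and rose in both comparisons (log2 1.69, adjusted p = 0.00082, and 0.85, adjusted p = 0.049). FAAP20, of the Fanconi core complex, was 16 and 18, 58 and 49, and 40 and 38 and also rose in both (1.53, adjusted p = 0.0011, and 1.11, adjusted p = 0.022). SLX1A, a nuclease subunit, was 69 and 57, 16 and 12, and 32 and 28 and fell in both (-2.17, adjusted p = 0.00061, and -1.09, adjusted p = 0.041), but it has a near-identical copy, SLX1B, and its reads are uncertain.

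Of 32 other excision and mismatch repair genes, 2 fell and 6 rose with DZNep, beside 20.4% and 22.4% of all tested genes. MGMT, which reverses alkylation of guanine, was 122 and 101 in Ctrl, 7 and 6 in DZNep cells and 25 and 28 with shEZH2, the largest change of any repair gene listed here. It fell by 3.97 with DZNep (log2, standard error 0.23, adjusted p = 4.9e-05), and the hairpin cells had -2.08 (standard error 0.23, adjusted p = 0.0058). ALKBH2, another direct reversal enzyme, rose with DZNep (1.47, adjusted p = 0.0012), as did the flap nuclease FEN1 (1.27, adjusted p = 0.00072). Of 21 other end joining and signalling genes, 1 fell and 2 rose with DZNep, beside the same 20.4% and 22.4%. TIMELESS, of the fork protection complex, was 168 and 161 in Ctrl, 57 and 50 in DZNep cells and 85 and 86 with shEZH2 and fell in both comparisons (-1.68, adjusted p = 0.00057, and -0.98, adjusted p = 0.026), while NHEJ1 (1.19, adjusted p = 0.0051) and RFC2 (0.88, adjusted p = 0.0071) rose with DZNep.

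Many repair genes vary with the cell cycle, so lists of cycle markers were counted beside them. Over all tested genes, 20.4% fell and 22.4% rose with DZNep, and 4.53% fell and 3.90% rose with shEZH2. Of 25 mitosis markers 13 fell and 0 rose with DZNep (median log2 fold change -0.86), among them NUF2 (-1.63, adjusted p = 0.0095), ANLN (-1.57, adjusted p = 0.0065) and BUB1 (-1.44, adjusted p = 0.0012). Of 25 DNA replication markers 4 fell and 11 rose with DZNep (median 0.31), with RRM1 (-1.65, adjusted p = 0.0013) and CCNE2 (-1.06, adjusted p = 0.017) lower and MCM2 (1.31, adjusted p = 0.0025) higher. With shEZH2, 0 of the mitosis markers were called by limma (3 lower at an unadjusted p under 0.05, beside 13.4% of all tested genes), 4 of the replication markers fell and 1 rose. Of 15 tested p53 targets, 1 fell and 5 rose with DZNep (median 0.03), and 7 of the 15 had a log2 fold change below 0. At an unadjusted p under 0.05, 3 were lower and 5 higher, beside 24.6% and 26.5% of all tested genes. AEN (1.72, adjusted p = 0.00047), GADD45A (1.26, adjusted p = 0.00077) and ZMAT3 (1.08, adjusted p = 0.011) were among the 5 that rose. The part of the cell cycle in the values of the repair genes was not tested.

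**Figure D4:**
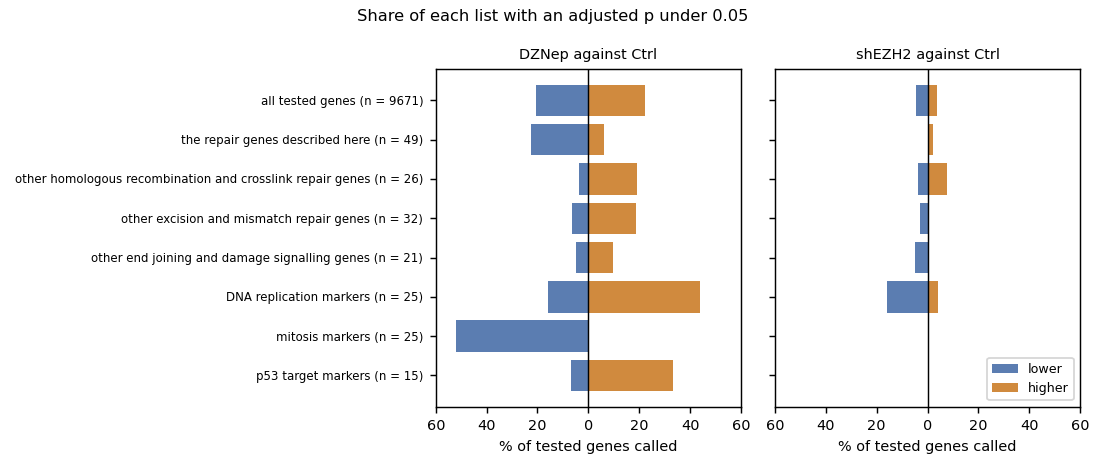
Share of the tested genes of each list (y axis, with the number tested) called lower (left of 0) or higher (right of 0) at an adjusted p under 0.05, in % (x axis), with DZNep (left panel) and shEZH2 (right panel). With DZNep the repair genes described here were lower in 22.4% and higher in 6.12%, and the mitosis markers were lower in 52% and higher in 0%.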

How the data were processed

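Transcript levels in 6 OVCAR8 samples were analysed, with groups and replicate numbers from the labels. Per the methods of the study, ribosomal RNA was removed, stranded libraries were sequenced, and reads were trimmed with fastp, aligned to GRCh38 with STAR (GENCODE v37) and quantified with RSEM. The deposited values are scores, which the authors had brought to a common total per sample and rounded to whole numbers, so they are not counts, the depth is unknown, and precision is limited by rounding and 2 replicates.

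The count model of the study could therefore not be used. Values were scaled with unweighted TMM factors (fractions 0.3 of log ratios and 0.05 of mean values trimmed at each end) and taken as log2(value + 1), which understates the change of low genes. Genes that reached 10 in 2 or more samples entered limma 3.58.1 in R 4.3.3 (lmFit, eBayes with trend, all 6 samples in 1 fit, two-sided). A gene was called at a Benjamini-Hochberg adjusted p under 0.05 over all 9671 tested genes, and the thresholds of the study served as a second rule. The fit was tested on simulated data with independent noise of the same spread in all groups. These data lacked the narrower spread of the shEZH2 samples and the GC-linked replicate differences, so the test does not cover them.

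The members, lists and tests were chosen with earlier results of these data known. Described with values were the 8 lowest and 8 highest members in each comparison with Ctrl, every member called with shEZH2 or between treatments, BRCA1, BRCA2 and PARP1, and of other lists at most the 3 largest called changes with DZNep. Other members named with values were chosen after these were seen. Transcript length, GC content and overlapping genes came from GENCODE v44, matched for 98.4% of the tested genes, and their effect was removed with lowess curves (span 0.3). Promoters came from the RefSeq table of GRCh38.p14. The alternatives were median-ratio scaling, values as deposited, filters of 1 and 20, pseudocounts of 0.5 and 5, no trend, only the groups compared, a replicate block, the length and GC correction with and without the block, each sample left out, and the shEZH2 samples averaged. Plots were made in Python 3.11.15 (matplotlib 3.10.9).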

Additional observations from a re-analysis of the deposited data

How the results depend on the processing

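No repair gene called in any of the 3 comparisons changed sign under any alternative. Among those not called, 16 of 35 with DZNep, 18 of 48 with shEZH2 and 24 of 47 between the treatments changed sign in at least 1. With the values as deposited, 7 repair genes fell and 5 rose with DZNep (median -0.01), beside 15.6% and 25.7% of all tested genes. With shEZH2, 0 fell and 2 rose in that setting, beside 4.32% and 8.40% of all tested genes. There 62.2% of all called genes were higher with DZNep and 66% with shEZH2, against 52.3% and 46.3% with TMM scaling. The thresholds of the study left 5 genes that fell with DZNep, beside 11.8% of all tested genes. Between the treatments they left 0 in each direction, beside 203 lower and 331 higher of the 9671 tested genes. Median-ratio scaling gave 1 gene lower with shEZH2 (5.08% of all tested genes), as did a pseudocount of 5 (5.24%). A filter of 1 gave 0 higher between the treatments (2.75%). With only the groups compared, 8 genes fell with DZNep (15.6% of all tested genes), 1 was lower and 2 higher with shEZH2 (7.87% and 8.01%), and 3 were higher in shEZH2 than in DZNep cells (7.70%). With the shEZH2 samples averaged, that group holds 1 sample, so no count of called genes is given for it.

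The replicate numbers share nothing that the labels state, and deviations of equal numbers had a correlation of 0.786 between Ctrl and DZNep but of -0.0242 and -0.0385 between these and shEZH2. With the replicate number as a block, 15 repair genes fell and 6 rose with DZNep (27.9% and 28.2% of all tested genes), 7 were lower and 2 higher with shEZH2 (14.1% and 14.5%), and 2 were lower and 5 higher in shEZH2 than in DZNep cells (12.6% and 14.0%). After the length and GC correction, 15 fell and 11 rose with DZNep (30.1% each), 10 were lower and 5 higher with shEZH2 (18.2% and 15.0%), and 4 and 6 between the treatments (17.2% and 18.6%). With both the correction and the block, 15 fell and 11 rose with DZNep (32.8% and 33.3%), 14 were lower and 7 higher with shEZH2 (22.7% and 19.9%), and 6 and 7 between the treatments (21.6% and 23.4%).

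Leaving out 1 sample at a time, 7 to 13 repair genes fell and 3 to 4 rose with DZNep (median -0.20 to 0.05), 0 to 2 were lower and 0 to 2 higher with shEZH2 (median -0.18 to -0.04), and 0 to 1 were lower and 0 to 3 higher between the treatments (median -0.12 to 0.06). In each comparison the number of calls over all tested genes also changed with the sample left out. The ranges of counts therefore do not set the repair genes apart. The DZNep median changed sign without Ctrl replicate 2 (0.05) and without DZNep replicate 1 (0.04). Where an arm was left with 1 sample, that sample was assumed to vary like the other groups. The causes of these differences were not tested.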
